A study of Mus musculus with 12 samples.

Results

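The tRNA-Leu fragments are the small RNA reads that come from the mature tRNAs charged with leucine. They were taken by name: every mature tRNA subclass with Leu in its name, in all 12 libraries. These are 5 isoacceptors of 51, each named by its anticodon: mature-tRNA-Leu-AAG, mature-tRNA-Leu-CAG, mature-tRNA-Leu-TAA, mature-tRNA-Leu-CAA and mature-tRNA-Leu-TAG, written below as Leu-AAG and so on. Each was split into tRF5 (reads from the 5′ end of the tRNA), tRF3 (reads from the 3′ end, with or without the CCA tail) and other (the remaining reads of the tRNA). Together they make 15 tRFs of 152 that had a read in any library, and all 5 isoacceptors had reads in every library.

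A tRNA-Leu carries leucine, a branched-chain amino acid, to the ribosome, and its anticodon reads the leucine codons. tRNA-Leu belongs, with tRNA-Ser and tRNA-SeC, to the type II tRNAs, whose variable arm between the anticodon and the T arm is long. Fragments of mature tRNAs, mostly their 5′ parts, are abundant in mature sperm, and angiogenin (Ang) is a ribonuclease known to cut tRNAs in the anticodon loop.

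Sperm came from the epididymis of C57BL6/J males that began the diet at the age of 4 weeks and stayed on it for 7 weeks. The control diet (CD, AIN-93G) had 16% of its kcal as fat, and the high-fat diet (HFD, D12492) is labelled with 69%, although the methods give a lower share. Each of the 3 CD and 3 HFD libraries pooled the sperm of 3 mice. TM4, a mouse Sertoli cell line, gave 2 libraries each of control cells (Ctrl), cells kept in 10 µM Compound C (CC), an AMPK inhibitor, for 12 h, and cells overexpressing Ang from its full coding sequence (Ang OE). No vector or vehicle is named for Ctrl, and all TM4 cells were in the same medium with fetal bovine serum.

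The sequences below show the 5 tRNAs and where they differ. Each is 1 copy of a gene found by its fold in the mouse genome GRCm39, written as the mature tRNA without the CCA tail, with the anticodon in capitals.

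tRNA-Leu-AAG: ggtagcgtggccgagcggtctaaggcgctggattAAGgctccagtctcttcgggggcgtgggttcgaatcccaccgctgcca
tRNA-Leu-TAG: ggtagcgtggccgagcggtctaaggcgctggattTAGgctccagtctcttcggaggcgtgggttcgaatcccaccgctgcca
tRNA-Leu-CAG: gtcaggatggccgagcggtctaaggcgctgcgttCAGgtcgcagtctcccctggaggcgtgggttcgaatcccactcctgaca
tRNA-Leu-CAA: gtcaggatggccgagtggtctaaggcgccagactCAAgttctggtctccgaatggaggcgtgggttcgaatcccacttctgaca
tRNA-Leu-TAA: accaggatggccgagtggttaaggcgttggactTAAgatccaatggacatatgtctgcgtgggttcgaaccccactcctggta

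The AAG copy lies on the minus strand of chromosome 11 from 48747801 to 48747882, in an intron of the lncRNA gene Gm73211. The TAG copy is intergenic on the plus strand of chromosome 11 from 69015067 to 69015148, and the CAG copy is intergenic on the plus strand of chromosome 1 from 170893553 to 170893635. The CAA copy, intergenic on the minus strand of chromosome 11 from 58193300 to 58193406, holds an intron that is absent from the mature tRNA. The TAA copy overlaps an exon of the lncRNA gene B230208H11Rik on the minus strand of chromosome 10 from 12798315 to 12798397. In all, 24 tRNA-Leu genes were found, 9 for CAG, 5 for AAG, 4 for CAA and 3 each for TAA and TAG, and 15 of the 24 were intergenic. The mature tRNAs shown are 82 to 84 nt long, so that levels are compared below without a correction for length.

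The tRNAs fall into pairs with common ends. In their most similar copies, AAG and TAG share their first 34 nt, up to the anticodon, and their last 28 nt, while CAG and CAA share their first 25 nt and their last 40 nt. Any other pair shares at most 1 nt at the 5′ end and 2 nt at the 3′ end. A short read from a shared end matches both tRNAs of a pair, and the annotation divided such reads between them. The AAG to TAG ratio of tRF3 reads was between 1.84 and 1.86 in the 6 sperm libraries. In the 6 TM4 libraries it was between 1.88 and 1.90, so the tRF3 values of this pair moved together in all libraries. Counts of tRFs below hold both members of a pair, so they are not counts of independent values. CAG and CAA tRF3 had a ratio of 1.33 to 1.45 in sperm and 0.961 to 1.08 in TM4 cells. Their tRF5 reads, in contrast, had a ratio of 11.6 to 20.7 in sperm, so that most tRF5 reads of this pair were assigned to CAG.

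Clean reads numbered between 31710445 and 64038150 per library. Levels are RPM, reads per 1000000 clean reads once rRNA is left out, and tRNA-Leu made between 110709 and 237379 reads per sperm library and between 15943 and 54698 per TM4 library. At this depth a class share had a 95% Wilson interval of at most 0.258 percentage points on either side in sperm and 0.776 in TM4 cells, which covers counting error only. Replicates of a group differed by far more than counting error, as a chi-square over the 15 tRFs was at least 39.5 times its degrees of freedom. miRNAs of epididymal epithelium summed to 9281 to 10573 RPM of the miRNA reads in CD and 8946 to 14327 in HFD sperm, where all 5 listed were detected, beside 2953 to 8412 and 3127 to 4142 for 8 germ cell miRNAs. The 3 smooth muscle miRNAs summed to 33610.5 to 50971 RPM in CD and 30631.5 to 56143 in HFD, and the 3 red blood cell miRNAs to 14019 to 18350.3 and 13696 to 26658, so that both lists exceeded the germ cell list in sperm. mir-202, a miRNA of gonadal somatic cells, was at most 0.178 RPM in TM4 libraries, below its 4.86 to 59.8 in sperm. In bulk samples fewer cells of a type and less RNA per cell cannot be told apart.

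Sperm and TM4 cells held opposite ends of tRNA-Leu. The tRF5 share of the tRNA-Leu reads was 71.0%, 72.01% and 74.0% in CD and 70.7%, 73.6% and 70.7% in HFD sperm. In TM4 cells it was 13.9% and 7.66% in Ctrl, 12.9% and 9.20% in CC and 26.0% and 21.0% in Ang OE. tRF3 made only 2.03% to 5.14% of the tRNA-Leu reads in sperm but 49.5% to 78.8% in TM4 cells. Sperm and TM4 libraries did not overlap in either share. Between 94.5% and 97.0% of the tRF3 reads in sperm and at least 99.8% in TM4 cells ended in CCA, the tail that is added to a tRNA after transcription and carries the amino acid. Reads with a match to the genome, which does not encode that tail, were 96.0% to 98.4% of the tRNA-Leu reads in sperm and 29.8% to 56.1% in TM4 cells.

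**Figure D1:**
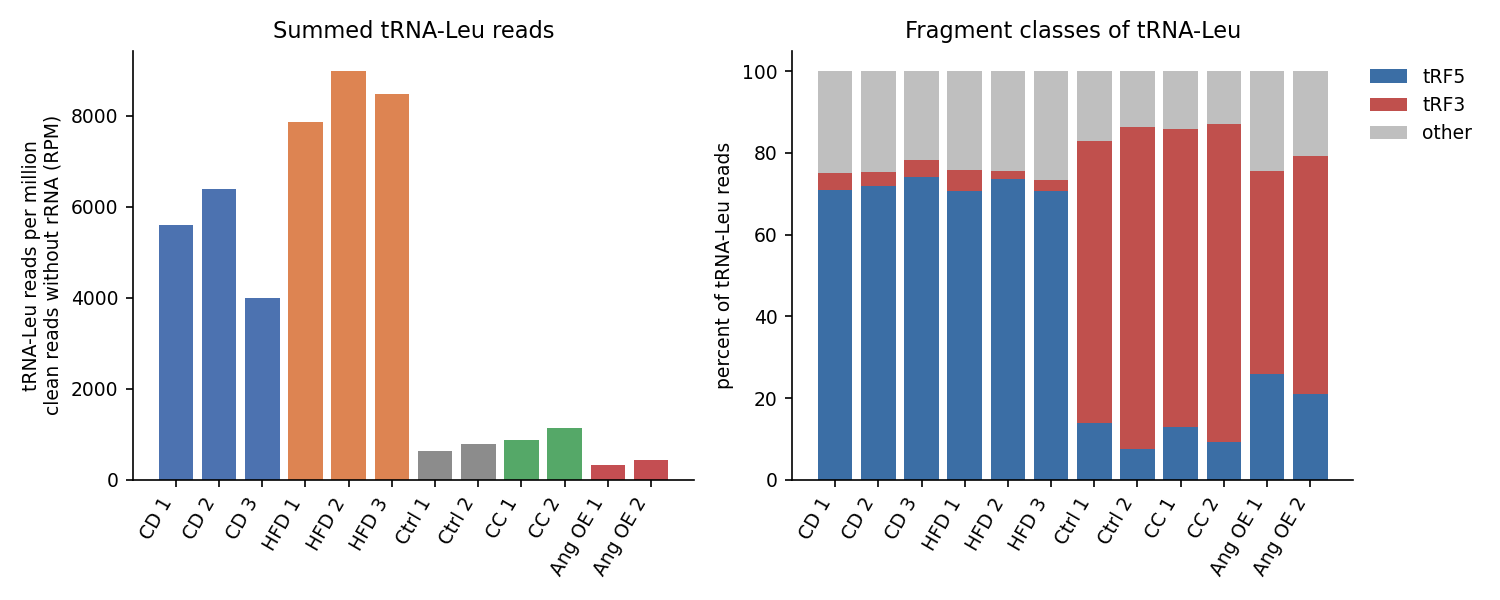
Left, summed tRNA-Leu reads per library in RPM, as bars from 0, and right, the percentage of the tRNA-Leu reads in the classes tRF5, tRF3 and other in the same 12 libraries. Sperm libraries (CD, HFD) sit between 3996 and 8984 RPM with 70.7% to 74.0% tRF5, and TM4 libraries (Ctrl, CC, Ang OE) between 322 and 1149 RPM with tRF3 as the largest class in each.

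The 2 control groups, CD sperm and Ctrl TM4 cells, show the size of this difference, which is given without a test because tissue and experiment cannot be told apart. Summed tRNA-Leu was 5338 ± 1227 RPM (SD, n = 3) in CD and 719 ± 109 RPM (SD, n = 2) in Ctrl, 7.43 times higher in CD. The tRF5 reads were 51.2 times higher in CD, whereas the tRF3 reads were 2.61 times higher in Ctrl. All mature tRNAs together had the same order, with tRF5 12.9 times higher in CD and tRF3 2.71 times higher in Ctrl. For Leu-TAA tRF5 the values were 301, 393 and 263 RPM in CD against 1.54 and 1.38 RPM in Ctrl, the largest ratio among the 15 tRFs at 219 times.

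Leu-CAG, the isoacceptor with the most gene copies found, was the most abundant in every library. Its fragments summed to 3467, 3896 and 2385 RPM in CD and 4522, 5902 and 5436 RPM in HFD sperm, and made 57.5% to 65.7% of the tRNA-Leu reads there. Leu-AAG followed with 1107, 1180.0 and 789 RPM in CD. The remaining isoacceptors had overlapping ranges in CD. These were 311 to 439.5 RPM for Leu-TAG, 304 to 455 RPM for Leu-TAA and 207 to 433 RPM for Leu-CAA. Within each CD library Leu-CAA was the lowest, whereas the order of Leu-TAG and Leu-TAA changed between libraries.

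In Ctrl TM4 cells the order was Leu-CAG with 251 and 270.3 RPM, Leu-CAA with 166 and 218 RPM, Leu-AAG with 119 and 171 RPM, Leu-TAG with 63.4 and 91.8 RPM and Leu-TAA with 40.5 and 45.01 RPM. Only Leu-CAA and Leu-AAG overlapped among these neighbours. Leu-CAG made 34.0% to 42.6% of the tRNA-Leu reads in TM4 cells, below its share in every sperm library, and Leu-CAA made 20.7% to 27.4% against 4.84% to 6.98% in sperm.

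The isoacceptors also differed in the ends they left. In sperm, tRF5 made 85.8% to 89.9% of the Leu-TAA reads and 77.7% to 82.99% of the Leu-CAG reads, but 41.6% to 56.2% of Leu-AAG and 45.5% to 56.5% of Leu-TAG. Leu-AAG and Leu-TAG had 36.3% to 54.3% and 32.9% to 48.5% of their reads in the class other. In TM4 cells Leu-TAA stood apart from the other 4, with 53.4% to 74.7% of its reads in other and 18.9% to 38.8% in tRF3. Leu-CAA had the largest tRF3 share in each TM4 library, from 71.2% to 89.0%, with Leu-AAG at 67.6% to 87.2% and Leu-TAG at 68.1% to 86.5%. Leu-CAG had the largest tRF5 share in TM4 cells, 17.2% to 48.0%.

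**Figure D2:**
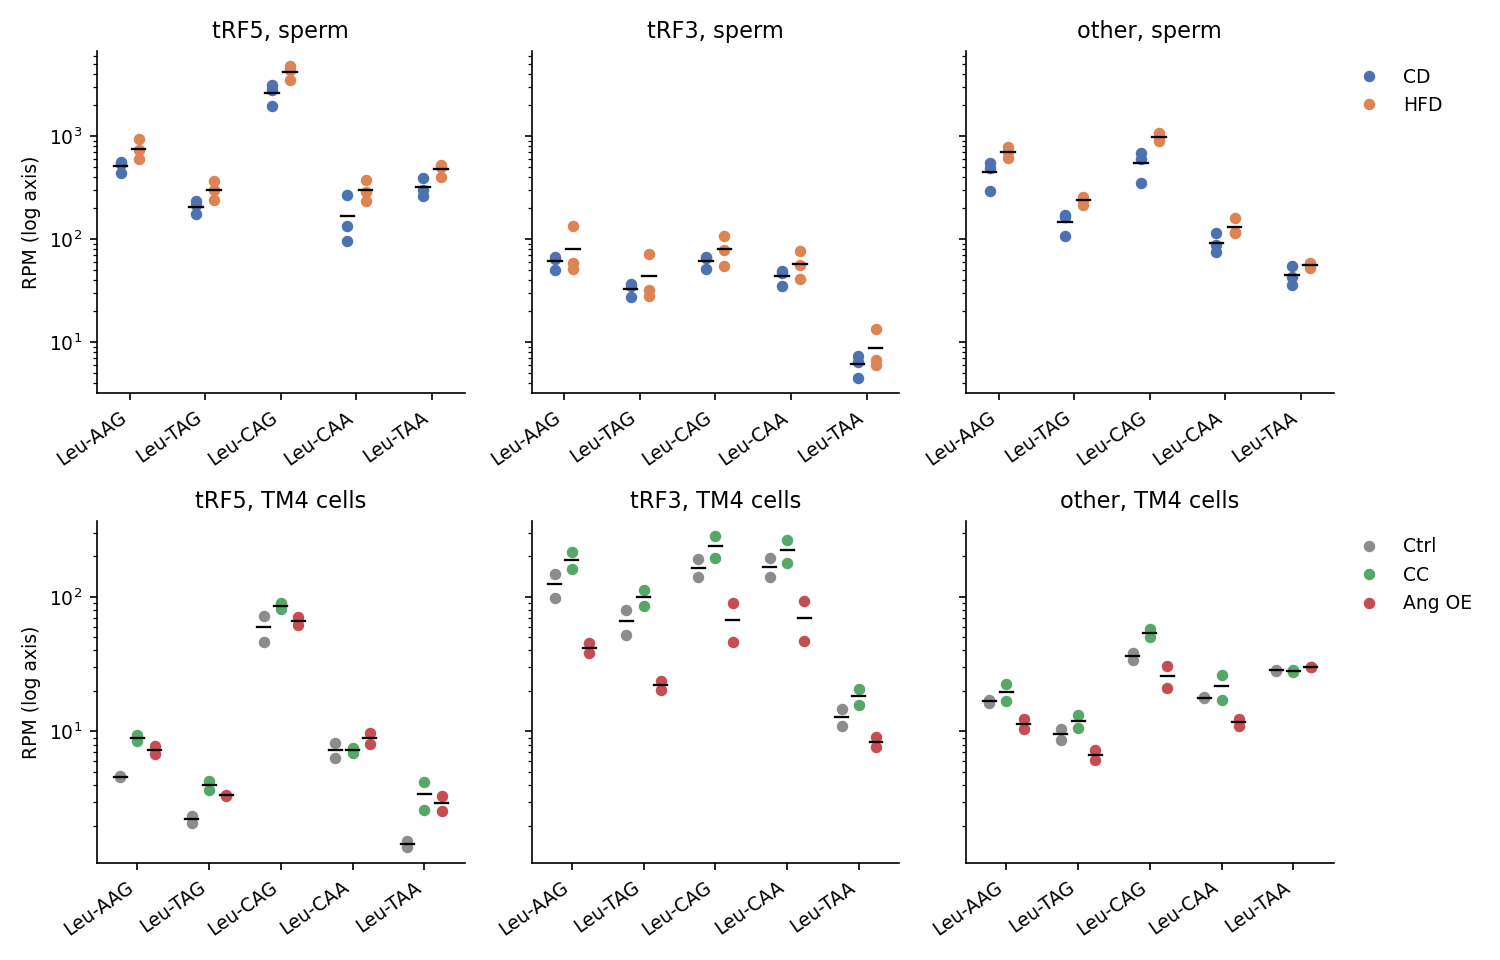
RPM on a log axis of the 15 tRNA-Leu tRFs, with 1 point per library and a black bar at the group mean, in sperm (top) and TM4 cells (bottom) for the classes tRF5, tRF3 and other. Leu-CAG tRF5 is the highest tRF in sperm at 1979 to 4772 RPM, and the Ang OE points are the lowest of all 5 tRF3 in TM4 cells.

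The comparison of diets asks whether high-fat feeding of the father changes the tRNA-Leu fragments of sperm. Summed tRNA-Leu reads were 5614, 6404 and 3996 RPM in CD and 7859.5, 8984 and 8472 RPM in HFD. The lowest HFD library exceeded the highest CD library, and the HFD mean of 8439 ± 563 RPM (SD, n = 3) was higher than the CD mean by 0.66 on the log2 scale. The exact 2-sided permutation test gave p = 0.1, the smallest that 3 against 3 libraries allow, and 0.2 after adjustment over 2 tests. The tRF5 share did not separate the diets, with 72.3% ± 1.56 in CD and 71.7% ± 1.69 in HFD (SD, n = 3; exact permutation p = 0.5, adjusted 0.5). tRNA-Leu made 3.65%, 5.95% and 2.41% of all mature tRNA reads in CD and 5.81%, 6.36% and 6.53% in HFD, where CD 2 lay above HFD 1. All mature tRNA reads had overlapping levels, 107544 to 165866 RPM in CD and 129681 to 141233 RPM in HFD. The rRNA reads, which were left out of the denominator, made 16.5% to 25.2% of the clean reads in CD and 24.7% to 32.9% in HFD. All 4 white blood cell miRNAs listed were detected in sperm, and their sum was 592 to 685 RPM of the miRNA reads in CD and 787 to 1435 in HFD, without overlap and higher in HFD. The epithelial, germ cell, smooth muscle and red blood cell lists overlapped between the diets. The part of rRNA and of other cell types in the result was not tested.

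The higher tRNA-Leu level lay in the tRF5 and other classes. Summed tRF5 was 3984, 4612 and 2959 RPM in CD and 5554, 6614 and 5991 RPM in HFD, and summed other was 1402, 1573 and 868.3 RPM against 1902, 2188 and 2248 RPM. Neither class overlapped between the diets. Summed tRF3 did overlap, with 227, 219.8 and 169 RPM in CD and 404, 182 and 233 RPM in HFD, where HFD 2 lay below CD 1 and CD 2.

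Of the 15 tRNA-Leu tRFs, 3 were called by edgeR's quasi-likelihood test (unadjusted p below 0.05 with a fold above 1.5), all higher in HFD, against 16.2% of the 142 tRFs tested. They come from the CAG and CAA pair. Leu-CAG other was 608, 682 and 355 RPM in CD and 901, 1075 and 986 RPM in HFD, with no overlap. In edgeR its log2 fold change was 0.85 (SE 0.35, unadjusted p = 0.0147, adjusted p = 0.260).

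Leu-CAG tRF5, the most abundant tRNA-Leu fragment, was 2793, 3148 and 1979 RPM in CD and 3513, 4772 and 4371 RPM in HFD. The diets did not overlap, and the log2 fold change in edgeR was 0.68 (SE 0.32, unadjusted p = 0.0357, adjusted p = 0.260). Leu-CAA tRF5 was 135, 271 and 96.9 RPM in CD and 237, 288 and 374 RPM in HFD, where CD 2 lay above HFD 1. Here edgeR gave a log2 fold change of 0.84 (SE 0.35, unadjusted p = 0.0184, adjusted p = 0.260).

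None of the 15 passed an adjusted p of 0.05 in edgeR, and none did in DESeq2. With the replicate number as a block, 5 were called, these 3 with Leu-AAG other and Leu-TAG other. The calls over all 142 tRFs went from 23 to 28. Same-numbered libraries correlated only weakly, and whether they are paired was not tested. All 15 log2 fold changes were above 0, from 0.32 to 0.85, but so were 91.5% of all 142, and without HFD 1 only 13 of the 15 were above 0. The median over tRNA-Leu was 0.54, beside 0.44 over all tRFs tested. The libraries of the diets did not overlap in 8 of the 15, higher in HFD, against 26.8% of all tRFs. The 5 tRF3 had log2 fold changes of 0.40 to 0.52, and HFD 1 held the highest value of each. Without HFD 1 their median fell from 0.41 to 0.066, and 2 of the 5 were below 0.

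**Figure D3:**
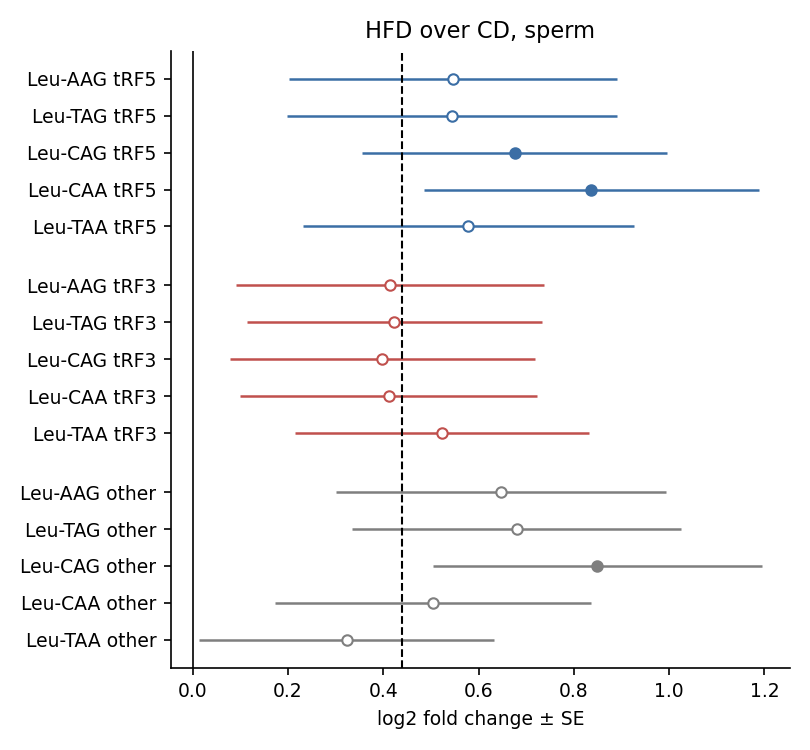
log2 fold change of HFD over CD with its standard error for the 15 tRNA-Leu tRFs, where filled points are the 3 called tRFs. The dashed line is the median of all 142 tRFs tested, 0.44, and the solid line is 0. The 15 points lie between 0.32 and 0.85 and scatter around the dashed line.

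The size of the difference depends on the scaling, and so does the direction of the tRF3. TMM normalization over the tRFs moved the median of all tRFs from 0.44 to -0.06 and that of tRNA-Leu to 0.04, with 0 called. It left 10 of 15 above 0, among them all 5 tRF5, and turned 4 of the 5 tRF3 below 0. The calls over all tRFs went from 23 higher and 0 lower to 1 higher and 6 lower. The count of tRNA-Leu calls was 0 without CD 3, 1 without CD 1, 1 without HFD 3 and 6 without CD 2, of which 3 then had an adjusted p under 0.05 in edgeR. Over all 142 tRFs the calls were 8, 7 and 54 without CD 3, CD 1 and CD 2 and 16 of 141 without HFD 3, and 26 had an adjusted p under 0.05 without CD 2.

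Among the other type II tRNAs, the fragments of tRNA-Ser and tRNA-SeC, 6 of 17 were called, all higher in HFD, with a median log2 fold change of 0.59, beside 16.2% called and a median of 0.44 over all 142 tRFs. The branched-chain tRNAs tRNA-Ile and tRNA-Val had 1 of 14 called, higher in HFD, and a median of 0.34. Over the 6 sperm libraries the isoacceptors whose level followed summed tRNA-Leu most closely were SeC-TCA, Cys-GCA and Ser-AGA, with root mean square differences of centred log2 RPM of 0.0859, 0.0906 and 0.148. The median over the 45 isoacceptors compared was 0.236.

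Compound C was used to ask whether blocking AMPK alters tRNA fragments. Summed tRNA-Leu was 641 and 796 RPM in Ctrl and 869 and 1149 RPM in CC, so that both CC libraries were above both Ctrl libraries. TM4 tRFs were called at a fold above 2 with an adjusted p below 0.05, and 0 of the 15 tRNA-Leu tRFs passed in edgeR, against 0.699% of the 143 tested. The count at an unadjusted p under 0.05 was 4, against 27.3% of all tRFs, and DESeq2 called 0 as well. The 3 with the smallest p were all tRF5 that were low in TM4 cells. The 3 red blood cell miRNAs summed to 942 to 982 RPM of the miRNA reads in CC and 1374 to 1433 in Ctrl, and the 4 white blood cell miRNAs to 1416 to 1489 and 1267 to 1270.4, all detected and neither overlapping, and their part in the result was not tested.

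Leu-AAG tRF5 was 4.57 and 4.64 RPM in Ctrl and 8.57 and 9.36 RPM in CC, with a log2 fold change of 0.96 (SE 0.23, edgeR adjusted p = 0.129). Leu-TAA tRF5 was 1.54 and 1.38 RPM in Ctrl and 2.63 and 4.20 RPM in CC, a difference of 1.23 (SE 0.35, edgeR adjusted p = 0.132). For Leu-TAG tRF5, 2.36 and 2.10 RPM in Ctrl stood against 3.69 and 4.31 RPM in CC, a difference of 0.84 (SE 0.27, edgeR adjusted p = 0.146). The Ctrl and CC libraries did not overlap in any of the 3.

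Leu-CAA tRF5 did not share this pattern, with 8.25 and 6.35 RPM in Ctrl and 7.56 and 6.96 RPM in CC, and its log2 fold change of -0.0082 turned positive without Ctrl 1 or without CC 2. All tRF5 of mature tRNAs together had a lower mean in CC, with 10869 and 5972 RPM in Ctrl and 6087 and 1911 RPM in CC. The groups overlapped, as CC 1 lay above Ctrl 2, and no test was run on these sums. tRNA-Leu made 0.823% and 1.02% of those tRF5 reads in Ctrl and 1.84% and 5.53% in CC. The 5 tRNA-Leu tRF3 had log2 fold changes of 0.41 to 0.60, beside a median of 0.59 over all tRF3. The median over the 15 was 0.52 and over all tRFs 0.43, and TMM normalization moved these to 0.16 and 0.06. The libraries did not overlap in 10 of the 15, higher in CC, against 55.9% of all tRFs. Without CC 1, 2 tRNA-Leu tRFs were called, Leu-AAG tRF5 and Leu-TAA tRF5, and 26 of all 143.

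Ang overexpression was compared with the same Ctrl libraries to see which fragments follow the nuclease. Summed tRNA-Leu was 322 and 448 RPM in Ang OE, below the 641 and 796 RPM of Ctrl, while all mature tRNA reads were 36772 and 49568 RPM in Ang OE against 27578 and 22658 RPM in Ctrl. tRNA-Leu made 0.875% and 0.903% of the mature tRNA reads in Ang OE and 2.33% and 3.51% in Ctrl. Most of the lower level lay in tRF3. Summed tRF3 was 159 and 261 RPM in Ang OE and 442 and 627 RPM in Ctrl, and summed other was 78.8 and 93.0 RPM against 109.6 and 108.1 RPM, neither overlapping. Summed tRF5 was 83.6 and 94.1 RPM against 89.4 and 61.0 RPM. No test was run on these sums.

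Of the 15 tRFs, 2 were called, both lower in Ang OE, against 5.59% of the 143 tRFs called lower, 4.2% called higher and 9.79% called in either direction. Both are tRF3, and among all 49 tRF3 tested 8 were called lower and 0 higher. Leu-AAG tRF3 was 98.5 and 149 RPM in Ctrl and 38.1 and 45.3 RPM in Ang OE. It fell by 1.57 on the log2 scale (SE 0.30, edgeR adjusted p = 0.0236). Leu-TAG tRF3, which shares its last 28 nt with it, was 52.4 and 79.3 RPM in Ctrl and 20.3 and 23.9 RPM in Ang OE. It fell by 1.58 (SE 0.28, edgeR adjusted p = 0.0229). Both Ang OE libraries were below both Ctrl libraries in each, and since the 2 tRF3 moved together, the 2 calls are not independent. The third smallest p belonged to Leu-CAG tRF3, with 140.4 and 189.7 RPM in Ctrl and 46.0 and 89.4 RPM in Ang OE. It did not pass (log2 fold change -1.29, SE 0.39, edgeR adjusted p = 0.071). Leu-CAG tRF3 was called lower in 7 of 16 settings, which include this fit and fits without 1 library.

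The classes of tRNA-Leu lay on opposite sides of 0. The 5 tRF3 had log2 fold changes of -1.58 to -0.62, with a median of -1.29 beside -0.65 over all 49 tRF3. The 5 tRF5 had 0.15 to 1.02, with a median of 0.59 beside 0.63 over all 44 tRF5, and edgeR with the library sizes used here called none of them. The highest was Leu-TAA tRF5, with 1.54 and 1.38 RPM in Ctrl and 2.56 and 3.33 RPM in Ang OE. It was called higher with TMM, with DESeq2 size factors, in a model of the 2 groups alone, after ComBat-seq and with a block of crossed replicate numbers. In the class other, 4 of 5 were below 0, and Leu-TAA other, at 28.1 and 28.8 RPM in Ctrl and 30.2 and 30.4 RPM in Ang OE, had 0.09. The signs of tRF5 and tRF3 were the same under each scaling tried, but 1 of the 5 tRF5 was no longer above 0 without Ctrl 2. TMM normalization gave 4 calls, 1 of them higher. Over all tRFs the calls were 6 higher and 8 lower as scaled here and 13 higher and 11 lower with TMM.

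Without Ctrl 2 no tRNA-Leu tRF was called, without Ang OE 1 only Leu-TAG tRF3, and without Ang OE 2 the count was 4, beside 3 of 142, 11 of 142 and 12 of 141 over all tRFs. The 3 listed smooth muscle miRNAs summed to 94556 to 129039 RPM of the miRNA reads in Ang OE and 49715 to 55567 in Ctrl. Of the 8 germ cell miRNAs, 5 were detected and summed to 1932 to 2045 RPM in Ang OE and 1017 to 1050.3 in Ctrl. The 3 red blood cell miRNAs summed to 885 to 894 RPM in Ang OE and 1374 to 1433 in Ctrl. None of these lists overlapped between Ang OE and Ctrl, or between Ang OE and CC. The white blood cell miRNAs, of which 3 of 4 were detected in Ang OE, summed to 1210.1 to 1399.5 RPM there, below the 1416 to 1489 of CC. The part of these lists in the results was not tested.

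**Figure D4:**
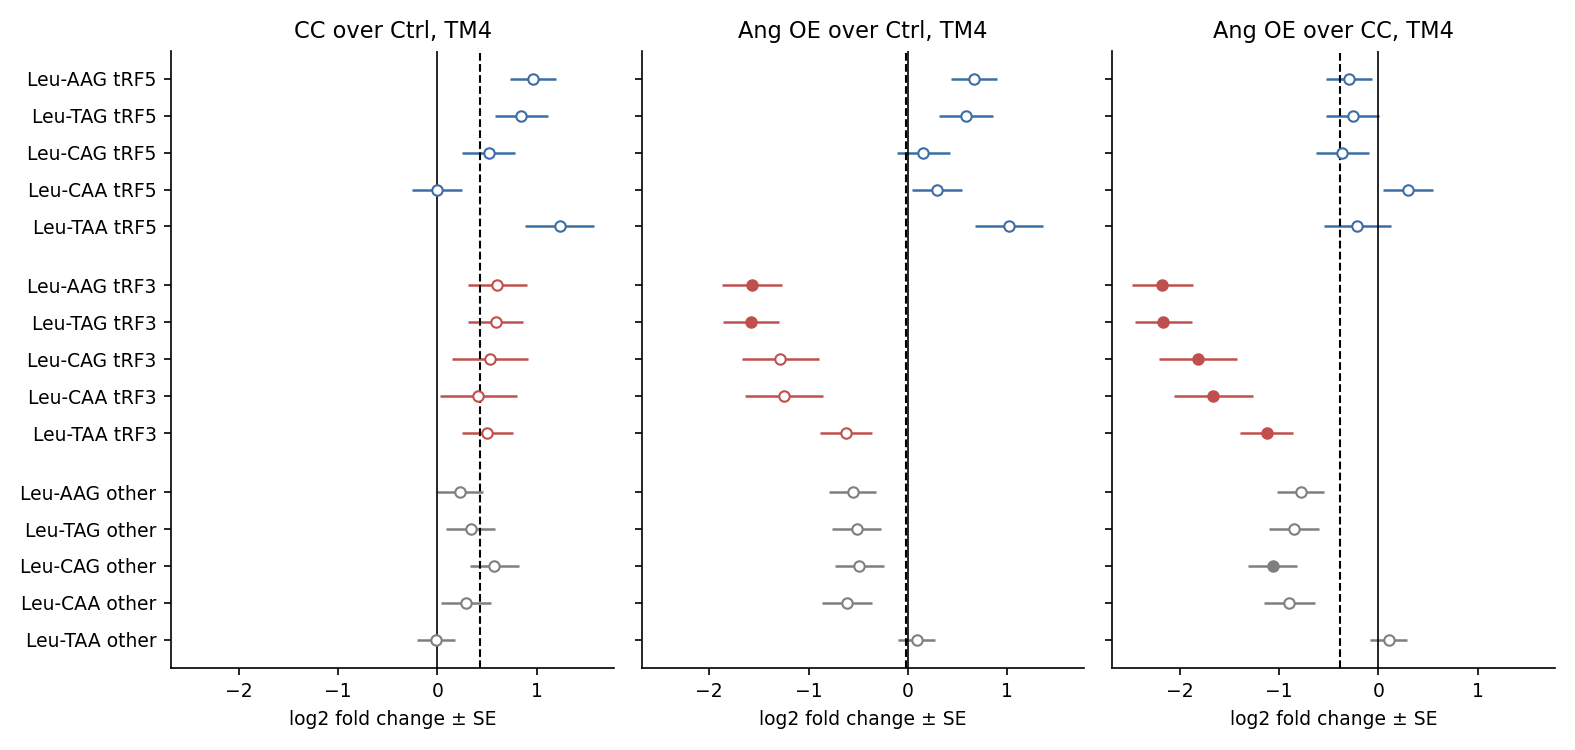
log2 fold change with its standard error for the 15 tRNA-Leu tRFs in the 3 TM4 comparisons, where filled points are called tRFs, dashed lines are the medians of all 143 tRFs tested and solid lines are 0. The tRF3 points lie to the right of 0 for CC over Ctrl, at 0.41 to 0.60, and to the left in both panels with Ang OE, at -1.58 to -0.62 against Ctrl and -2.17 to -1.12 against CC.

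Ang OE set against CC gave the most calls. Of the 15 tRFs, 6 were called, all lower in Ang OE, against 27.3% of the 143 called lower, 11.2% called higher and 38.5% called in either direction. An adjusted p under 0.05 was reached by 9 of the 15 and by 51.7% of all tRFs. The 6 were all 5 tRF3 and Leu-CAG other. Among all 49 tRF3 tested, 29 were called lower and 0 higher. Leu-AAG tRF3 was 161 and 215 RPM in CC and 38.1 and 45.3 RPM in Ang OE, and fell by 2.17 (SE 0.30, edgeR adjusted p = 0.0029). Leu-TAG tRF3 was 84.9 and 113 RPM in CC and 20.3 and 23.9 RPM in Ang OE, and fell by 2.16 (SE 0.29, edgeR adjusted p = 0.0029).

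The CAG and CAA pair came next. Leu-CAG tRF3 was 193 and 282 RPM in CC and 46.0 and 89.4 RPM in Ang OE, and fell by 1.81 (SE 0.39, edgeR adjusted p = 0.0104). Leu-CAA tRF3 was 179 and 264 RPM in CC and 47.4 and 93.1 RPM in Ang OE, and fell by 1.66 (SE 0.40, edgeR adjusted p = 0.0127). In each, the CC libraries were above both Ang OE libraries.

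Leu-TAA tRF3, the least abundant tRF3, was 15.6 and 20.8 RPM in CC and 7.65 and 9.06 RPM in Ang OE, and fell by 1.12 (SE 0.26, edgeR adjusted p = 0.0120). Leu-CAG other was 50.4 and 57.3 RPM in CC and 20.9 and 30.6 RPM in Ang OE, and fell by 1.06 (SE 0.25, edgeR adjusted p = 0.0120). Both were lost with TMM normalization, which gave 4 calls and moved the median of all tRFs from -0.38 to 0.03.

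The tRF5 had log2 fold changes of -0.36 to 0.30 against CC, with 0 called by edgeR, none at an unadjusted p under 0.05 and none by DESeq2. Leu-AAG, Leu-CAG and Leu-TAG tRF5 were lower in both Ang OE libraries than in both CC libraries and Leu-CAA tRF5 was higher, while Leu-TAA tRF5 overlapped. Of all 44 tRF5, 24 were higher and 8 lower without overlap. The direction of the tRNA-Leu tRF5 turned with the scaling, with 1 of 5 above 0 here and 5 of 5 with TMM. All 44 tRF5 had a median of 1.02 and all 49 tRF3 a median of -1.28, beside -1.81 for the tRNA-Leu tRF3. Calls over all tRFs were 16 higher and 39 lower, and 22 higher and 19 lower with TMM. Without Ang OE 1 the count for tRNA-Leu was 3, Leu-AAG, Leu-CAG and Leu-TAG tRF3, beside 43 of 142 over all tRFs.

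The lists of related tRNAs had mixed directions in TM4 cells. Of the 17 tRNA-Ser and tRNA-SeC tRFs, 1 was called for CC over Ctrl, higher, 1 higher and 1 lower for Ang OE over Ctrl, and 1 higher and 7 lower for Ang OE over CC. Of the 14 tRNA-Ile and tRNA-Val tRFs, the counts were 0, then 2 lower, then 2 higher and 3 lower. Over all 143 tRFs, 0.699% were called higher and 0% lower for CC over Ctrl, 4.2% higher and 5.59% lower for Ang OE over Ctrl, and 11.2% higher and 27.3% lower for Ang OE over CC. Over the 6 TM4 libraries the isoacceptors closest to summed tRNA-Leu were Ser-TGA, Ala-TGC and Ser-GCT, with root mean square differences of 0.113, 0.135 and 0.169, beside a median of 0.557 over 45. Ser-TGA ranged from 32.3 to 150.2 RPM and Ala-TGC from 318 to 1408 RPM. The 3 TM4 comparisons share libraries, so their values are given side by side and their likeness was not tested.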

How the data were processed

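Small RNA was sequenced from 6 sperm and 6 TM4 libraries. The authors checked read quality with FastQC 0.12.0, trimmed with Trimmomatic 0.40 (versions and build mm10 per the labels) and annotated the reads with SPORTS1.1, allowing a mismatch. The deposited files hold reads per subclass as estimated counts, where a read matching several subclasses was divided among them, with no normalization. The members and lists were chosen with earlier results of these data known. Reads with and without a genome match were added, and CCA-tailed fragments were counted in tRF3.

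Levels are RPM, scaled to clean reads minus rRNA reads. A tRF entered the test if 3 or more sperm libraries, or 2 or more TM4 libraries, held 10 reads or more, as did all 15 of tRNA-Leu. Tests were made with edgeR 4.0.16 (R 4.3.3, quasi-likelihood test, Benjamini-Hochberg adjustment) on the rounded estimated counts, with clean reads minus rRNA reads as the library sizes. The call for sperm needed an unadjusted p below 0.05 with a fold above 1.5, and the call for TM4 cells, fitted over all 6 libraries, an adjusted p below 0.05 with a fold above 2. DESeq2 1.42.0, TMM, ComBat-seq (sva 3.50.0), other filters and single libraries left out were alternatives. The authors adjusted the TM4 data for batches with ComBat-seq, but the labels name no batch, so the replicate number stood in for it here. The script was tested on simulated data.

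The text gives full statistics for each tRNA-Leu tRF called in a comparison and, where fewer than 3 were called, for the 3 with the smallest p. Nothing says that TM4 replicates were separate cultures, so p-values measure the spread between these libraries. Deviations of same-numbered CD and HFD libraries from their group means correlated weakly (r = 0.118, 0.164 and 0.257 across 142 tRFs). Other pairs had at most 0.0059, but deviations cancel out within a group, so low values for other pairs are partly built in. The replicate number was used as a block because of these values, not from the labels. Whether the libraries are paired was not tested. The group means of summed reads and shares were compared with exact 2-sided permutation tests in Python 3.11.15 with scipy 1.17.1.

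tRNA-Leu genes were found in GRCm39 by the tRNA fold and the anticodon, since the sequences used for annotation were not used here. All 24 have the chromosome, anticodon and length of a RefSeq gene, of which 25 are numbered, and GENCODE gave the overlapping genes. Figures were drawn with matplotlib 3.10.9.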

Additional observations from a re-analysis of the deposited data

How the results depend on the processing

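The count of called tRNA-Leu tRFs for HFD over CD was 3, and it was 0 with TMM normalization, 0 with DESeq2 size factors, 5 with DESeq2 on the same library sizes and 5 with the replicate block, beside 23 over all tRFs and then 7, 9, 25 and 28. Leaving out 1 library gave 0 to 6. The log2 ratio of summed tRNA-Leu reads stayed between 0.49 and 0.81 when 1 library was left out. The difference in tRF5 share was -0.68 percentage points, with a range of -1.66 to 0.17 when 1 library was left out. It turned to 0.17 without CD replicate 3.

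For CC over Ctrl the count was 0, with 1 after ComBat-seq, where 13 of all tRFs were called, and 0 to 2 without 1 library. For Ang OE over Ctrl the count of 2 became 4 with TMM, 4 with DESeq2 on the same sizes, 5 with DESeq2 size factors, 4 with the replicate block, 5 in a model of the 2 groups alone and 5 after ComBat-seq, with 0 to 4 without 1 library. The counts over all tRFs rose alongside, from 14 to 24, 27, 31, 18, 30 and 34 in the same order. For Ang OE over CC the count of 6 ranged from 3 to 7 without 1 library, with 43 of 142 called over all tRFs at 3 (without Ang OE 1), 40 of 142 at 4 (without CC 2) and 72 of 143 at 7 (without CC 1), against 55 of 143 with all libraries. The cause of these changes was not tested. The labels do not say what a replicate number of TM4 cells stands for. Deviations of same-numbered libraries correlated with r = 0.718 for Ctrl and CC. The r was -0.327 for Ctrl and Ang OE and -0.252 for CC and Ang OE. With 2 libraries per group the deviations are equal and opposite, so the sign of r depends only on the numbering. These values cannot show whether same-numbered libraries varied together. For CC over Ctrl the replicate block left the count at 0. With the Ang OE numbers crossed, a block chosen after seeing the data, the counts were 3 against Ctrl and 6 against CC, beside 28 and 61 of all 143 tRFs.

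The tRFs given with an SE have 226 values under these alternatives. Of these, 188 stayed on the same side of the threshold, 28 were lost, 10 were gained and 0 changed direction. Other tRFs did change direction, among them tRF3 in HFD over CD, tRF5 in Ang OE over CC, 1 tRF5 in Ang OE over Ctrl without Ctrl replicate 2, and Leu-CAA tRF5 in CC over Ctrl. With TMM the tRFs above 0 in CC over Ctrl went from 13 to 10 of 15. With CCA fragments as a class of their own, tRF3 as defined here has no value. A lone library of a TM4 group was assumed to vary like the others. With 3 residual degrees of freedom for TM4 cells and pools of mice for sperm, a p that missed the threshold does not show that levels were alike, and Leu-TAA tRF5 in TM4 cells rests on 1.38 to 4.20 RPM.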
